A study of Mus musculus with 12 samples.

Results

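The ADAMTS proteases are secreted zinc metalloproteases of the extracellular matrix that carry thrombospondin repeats. They were followed here through 8 mouse genes, Adamts1, Adamts4, Adamts5, Adamts7, Adamts9, Adamts10, Adamts12 and Adamts15, in NIH3T3 cells, an established line of mouse embryo fibroblasts. Every probe set whose only gene symbol in the platform annotation was one of these 8 was taken, which gave 16 of the 45101 probe sets on the array. Affymetrix arrays were hybridised with biotin-labelled RNA from 6 groups of 2 samples each, 12 arrays in all. Nothing in the labels tells separate cultures from repeat arrays of 1 culture, and p-values here therefore cover only array-to-array spread, which may be technical.

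The cells expressed 1 of 4 constructs, and the labels say of control cells that they were infected with control virus. Tead2-VP16 joins Tead2, a DNA-binding transcription factor, to a viral activation domain, and was sampled at complete confluency and, in proliferating cells, at a density slightly above the confluency of normal cells, called high density here. Yap, a coactivator that binds Tead factors, was sampled in proliferating cells at that same high density. Tead2-EnR joins Tead2 to a repressor domain and was sampled at 30% of the confluency of those cells themselves, so the number of cells per dish need not match that of control. Control vector cells were sampled at complete confluency and at 30% confluency, called low density here. No control cells were sampled at high density, so vector and density cannot be told apart in comparisons of high-density Yap or Tead2-VP16 cells with control. The labels do not give the promoter of the vectors or the number of clones.

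ADAMTS proteases are made as inactive proenzymes, are activated by furin-like convertases, and are held in check by tissue inhibitors of metalloproteases, above all Timp3. Adamts1, Adamts4, Adamts5, Adamts9 and Adamts15 cut the large proteoglycans that bind hyaluronan, such as aggrecan and versican. Adamts7 and Adamts12 form a pair that cuts cartilage oligomeric matrix protein, and Adamts10 binds fibrillin microfibrils and is a weak protease. In fibroblasts these enzymes are known for turning over the pericellular matrix.

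Levels are given as log2 of the normalized intensity and differences as log2 fold changes, the first-named group minus the second. Levels of different probe sets are not compared. Values were tested with limma on all 45037 probe sets that were not controls, in a fit of all 12 arrays, and "rose" or "fell" means an adjusted p below 0.05. Arrays of bulk RNA cannot tell fewer expressing cells from less RNA per cell. The probe set with the highest mean stood for its gene where several were present.

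Array medians ran from 51.9 to 53.7 in intensity, and the arrays of a group correlated across probe sets with r from 0.997 to 0.9982. All 10 fibroblast markers were above the median probe set (5.72). So were 4 of 5 chondrocyte, 4 of 5 epithelial, 2 of 5 skeletal muscle, 2 of 6 macrophage, 1 of 5 endothelial and 0 of 4 measured adipocyte markers. The summed intensity of the endothelial markers lay between 128 and 160 and that of the adipocyte markers between 54 and 64 on all arrays. Such a sum follows its brightest markers and can move where most markers of a list do not. The probe sets of the genes that the vectors carry gave no clear sign of them. Tead2 stood at 9.76 in both confluent Tead2-VP16 arrays, against 9.87 and 9.90 in confluent control, and Yap1 at 9.62 and 9.69 in Yap cells, against 9.95 and 9.98 in confluent control. In high-density Tead2-VP16 cells Tead2 stood at 9.41 and 9.23. Over confluent control, Tead2 and Yap1 both fell in Yap cells and in high-density Tead2-VP16 cells. At low density Tead2 stood at 9.84 and 9.82 with Tead2-EnR, against 9.63 and 9.62 in control, without overlap but not past the test (adjusted p = 0.0591). Whether those probes lie within the inserted sequence is not given, so they check nothing about the labels.

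By mean level over the 12 arrays, 8 of the 16 probe sets were above the median probe set, 1 each for Adamts1, Adamts4, Adamts7, Adamts10 and Adamts12 and 3 for Adamts5. In 7 probe sets every array was below that median. These were the 3 of Adamts9, the only one of Adamts15, and the dimmer ones of Adamts4, Adamts5 and Adamts12. No detection calls were available. Adamts1 and Adamts5 are next to each other among protein-coding genes on chromosome 16, and Adamts15 lies beside Adamts8 on chromosome 9 (RefSeq, GRCm38.p6).

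The proximal promoter of Adamts1 is shown because this gene had the largest change of the 8 and because the study turns on a DNA-binding factor. Promoter sequences of 300 bases, from 250 before to 50 after the start, were at hand for 3 of the 8 genes, Adamts1, Adamts9 and Adamts12 (RefSeq, GRCm38.p6). The Adamts1 window is chr16:85803064-85803363 on the minus strand, with 64.7% G and C. Capitals mark 1 TATA box and 3 GC boxes.

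Adamts1 promoter: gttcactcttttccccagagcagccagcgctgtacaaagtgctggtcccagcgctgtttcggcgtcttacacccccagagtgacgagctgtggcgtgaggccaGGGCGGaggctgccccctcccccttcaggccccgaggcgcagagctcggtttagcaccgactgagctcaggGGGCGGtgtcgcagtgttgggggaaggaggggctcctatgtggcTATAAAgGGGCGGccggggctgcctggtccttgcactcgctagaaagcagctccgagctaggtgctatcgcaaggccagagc

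The TATA box (TATAAA, or TTTATA on the other strand) starts at -32 and the GC boxes (GGGCGG, or CCGCCC) at -147, -76 and -25 from the start. Of 32851 RefSeq promoter windows, 13.6% held a TATA box and 35.7% a GC box by these letters. The Tead motif, searched as GGAATG and CATTCC, was in 0 of the 3 windows and in 14.7% of all windows. The AP-1 motif (TGANTCA, its own reverse complement) was also in 0 of the 3 and in 7.81% of all. The motifs searched do not overlap one another in the printed window. The Adamts12 window held none of these 4 motifs, and that of Adamts9 held 1 GC box. No match says only that these letters are not in this window.

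Adamts1, which cuts versican and aggrecan, was the member with the widest range. Its level was 10.12 and 10.16 in confluent Tead2-VP16 cells, 9.40 and 9.48 in Yap cells and 8.48 and 8.55 in high-density Tead2-VP16 cells, against 11.17 and 11.08 in confluent control. At low density it was 8.54 and 8.49 with Tead2-EnR, against 9.37 and 9.32 in control. Both confluent control arrays lay above all other arrays, and those of Tead2-EnR and high-density Tead2-VP16 overlapped at the bottom. In the order of group means, every step down passed the test except Yap to low-density control and high-density Tead2-VP16 to Tead2-EnR.

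Adamts5, the main aggrecanase of mouse cartilage, followed another order. Its brightest probe set stood at 11.59 and 11.58 in confluent Tead2-VP16 cells, 10.48 and 10.41 in Yap cells and 10.27 in both high-density Tead2-VP16 arrays, against 11.36 and 11.26 in confluent control. At low density it stood at 9.29 and 9.34 with Tead2-EnR, against 10.01 and 10 in control. No 2 groups overlapped. Each neighbouring pair in the order passed the test except Yap and high-density Tead2-VP16 (gap 0.18, adjusted p = 0.239).

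Adamts4, the other classical aggrecanase, was lowest in low-density control. It read 6.14 and 6.12 in confluent Tead2-VP16 cells, 5.91 and 6.03 in Yap cells and 6.04 and 6.07 in high-density Tead2-VP16 cells, against 6.41 and 6.44 in confluent control. With Tead2-EnR it read 6.16 and 6.15, against 5.31 and 5.49 in low-density control. The 4 groups between the controls had means from 5.97 to 6.16, and no neighbours among them passed the test.

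Adamts7, which cuts cartilage oligomeric matrix protein, had the same extremes as Adamts4. It stood at 7.26 and 7.25 in confluent Tead2-VP16 cells, 6.79 and 7.06 in Yap cells and 7.11 and 7.09 in high-density Tead2-VP16 cells, against 7.59 and 7.73 in confluent control. At low density it stood at 7.08 and 7.12 with Tead2-EnR, against 6.09 and 6.33 in control. Both low-density control arrays were below the other 10, and the step from Yap down to low-density control was the only neighbouring step to pass the test.

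Adamts12, the relative of Adamts7, was high in the dense groups and low in the sparse ones. Its level was 9.0 and 9.06 in confluent Tead2-VP16 cells, 8.56 and 8.58 in Yap cells and 8.96 and 8.84 in high-density Tead2-VP16 cells, against 8.91 and 8.87 in confluent control. Both low-density groups were lower, at 7.51 on both Tead2-EnR arrays and at 7.61 and 7.62 in control. Yap cells lay between the other dense groups and the low-density groups and differed from the neighbour on either side.

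Adamts10, which binds fibrillin, was also higher in the dense groups than in the sparse ones on its brightest probe set. It read 8.49 and 8.48 in confluent Tead2-VP16 cells, 8.23 and 8.27 in Yap cells and 8.28 in both high-density Tead2-VP16 arrays, against 8.29 and 8.32 in confluent control. At low density it read 7.28 and 7.57 with Tead2-EnR, against 7.20 and 7.40 in control, and those groups overlapped. The step from Yap to Tead2-EnR was the only neighbouring step to pass the test.

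Adamts9, a versican-cutting enzyme, and Adamts15, an aggrecan- and versican-cutting one, were dim and nearly flat. The brightest Adamts9 probe set had group means from 5.12 to 5.51 and that of Adamts15 from 4.17 to 4.28, with no neighbouring step past the test for either gene.

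**Figure D1:**
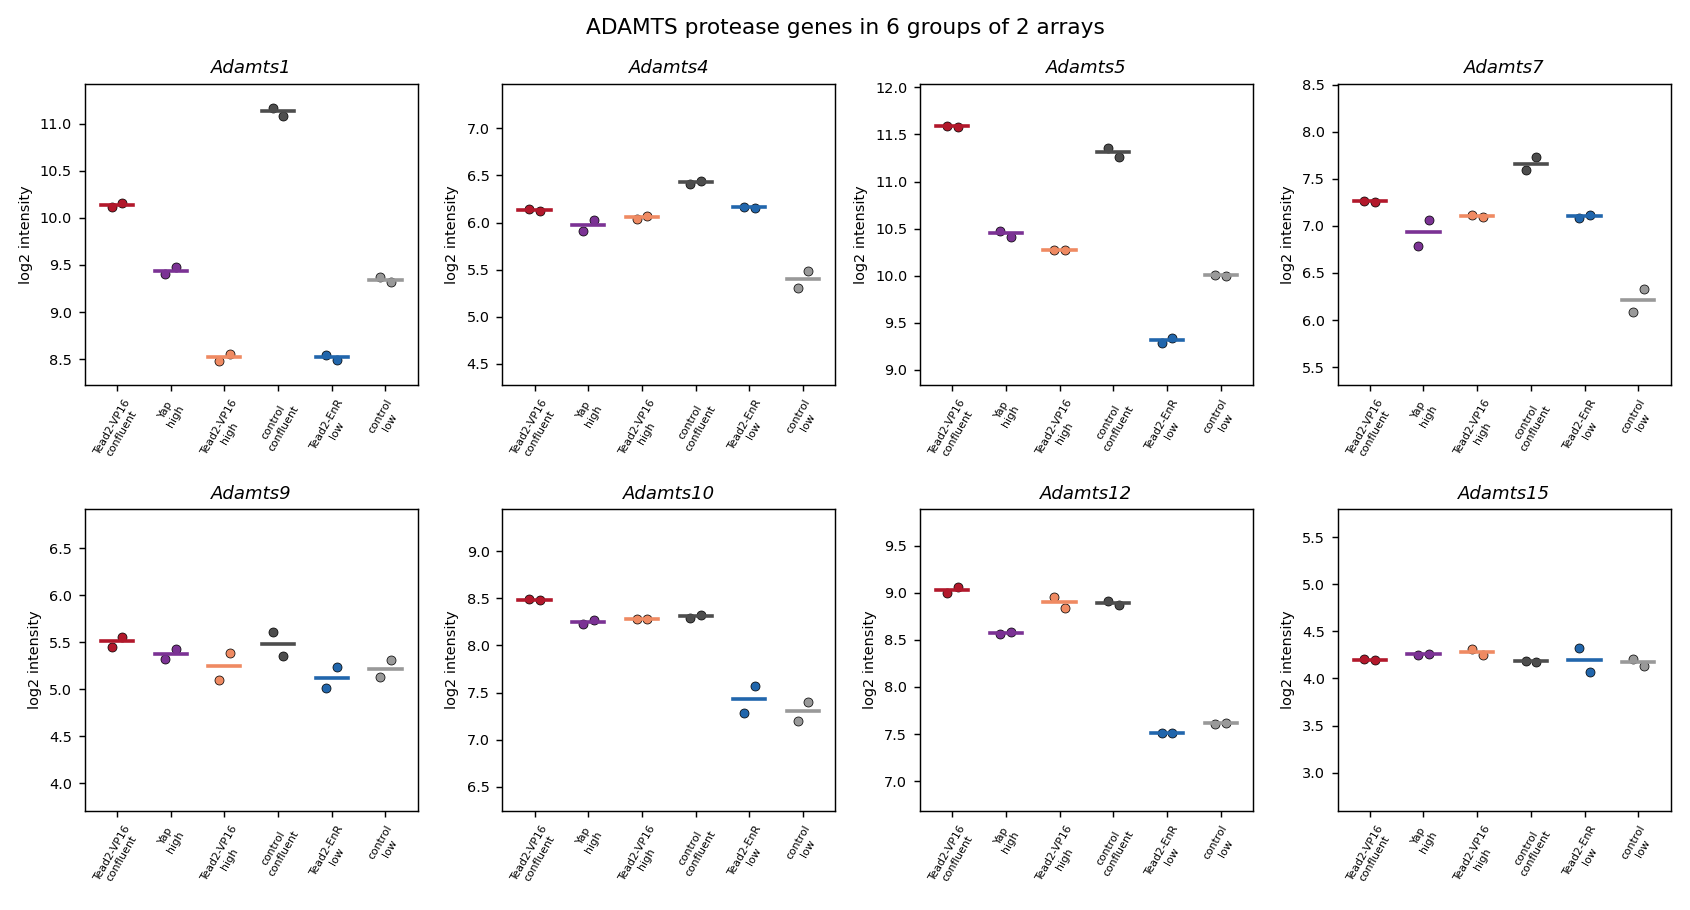
Log2 intensity (vertical axes) of the brightest probe set of each of the 8 ADAMTS genes in the 6 groups; points are arrays (2 a group) and bars are group means. Adamts1 was highest in confluent control (11.17 and 11.08), Adamts4 and Adamts7 were lowest in low-density control, Adamts10 and Adamts12 were low in both low-density groups, and Adamts9 and Adamts15 were flat.

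Confluent control cells were set against low-density control cells to see which members depend on density. Adamts1 rose 3.44-fold in confluent cells (1.78 ± 0.0666, SE, adjusted p = 1.76e-08), and Adamts7 rose 2.74-fold (1.45 ± 0.103, adjusted p = 1.39e-06). Adamts5 rose by 1.31, Adamts12 by 1.27, Adamts4 by 1.03 and Adamts10 by 1.0. The dimmer Adamts10 probe set was at -0.17 and did not pass (adjusted p = 0.191). Of the 16 probe sets, 9 rose, where 20.2% of all probe sets did, and 1 fell, where 18.6% did. Their median difference was 0.89, beside -0.016 over all probe sets. The fall was in an Adamts9 probe set (-0.30, adjusted p = 0.0455), while the brightest Adamts9 probe set was at 0.26 and did not pass (adjusted p = 0.153), so the probe sets of that gene disagree in sign. Adamts15 was at 0.01, with a 95% interval from -0.17 to 0.19.

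Array controls differed between the same arrays. For the transferrin receptor control, the difference of 3′ minus 5′ probe sets ran from 1.17 to 1.44 in confluent control and from 0.94 to 1.02 in low-density control. That of the actin control ran from 0.22 to 0.25 in confluent cells and from 0.08 to 0.09 in low-density cells, and the mean of the poly-A spike-in probe sets from 8.50 to 8.67 in confluent and from 8.13 to 8.26 in low-density cells. The summed intensity of the 10 fibroblast markers was 123755 to 126425 in confluent control, against 72971 to 74269 in low-density control. Of the other marker sums, macrophage (695 to 722, against 415 to 434) and chondrocyte (1379 to 1611, against 1043 to 1054) were higher in confluent control. Epithelial (1540 to 1590, against 2703 to 2950) and skeletal muscle (183 to 193, against 227 to 237) sums were lower. Single markers did not all go with their sum. Of 6 macrophage markers 1 rose and 1 fell, with means of 8.99 against 7.76 for Lyz2 and 4.47 against 5.12 for Cd68. Of 5 epithelial markers 1 rose and 1 fell, with means of 8.39 against 7.14 for Epcam and 10.11 against 11.31 for Krt14. Of 5 chondrocyte markers 2 rose and 0 fell, and of 5 skeletal muscle markers 0 rose and 2 fell. The part of these controls and markers in the ADAMTS differences was not tested.

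Tead2-EnR cells were compared with control at the same nominal density, to see what the repressor fusion changed. Of the 5 hyaluronan-proteoglycan enzymes, Adamts1 fell 1.77-fold (-0.83 ± 0.0666, SE, adjusted p = 1.10e-05) and Adamts5 fell 1.61-fold (-0.69 ± 0.0628, adjusted p = 2.47e-05), while Adamts4 rose 1.69-fold (0.76 ± 0.0747, adjusted p = 4.16e-05). Adamts9 (-0.10) and Adamts15 (0.03) did not pass. Adamts7 rose 1.86-fold (0.89 ± 0.103, adjusted p = 1.18e-04). Adamts12 was at -0.11, with a 95% interval from -0.25 to 0.03, and Adamts10 at 0.12, from -0.09 to 0.34. Across probe sets 3 rose, where 13.6% of all did, and 5 fell, where 13.9% did, with a median of -0.10. Both Adamts4 probe sets rose, and 3 of the 4 Adamts5 probe sets fell, by 0.50 to 0.92. The fifth fall was in the dimmer Adamts10 probe set (-0.38, adjusted p = 0.011), so the probe sets of Adamts10 disagree.

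Among the markers of other cells, the summed intensity of 6 macrophage markers was 1616 to 1657 with Tead2-EnR, against 415 to 434 in low-density control. Lyz2, lysozyme, was at 10.51 and 10.47 with Tead2-EnR, against 7.80 and 7.71 in control. Of these 6 markers, 2 were above the median probe set, and 1, Lyz2, rose while 1, Cd68, fell (mean 4.56 with Tead2-EnR, against 5.12 in control). The other 4, Adgre1, Csf1r, Itgam and Ptprc, did not pass. Epithelial markers summed to 2271 to 2306 with Tead2-EnR, against 2703 to 2950 in control, chondrocyte markers to 1395 to 1414, against 1043 to 1054, and skeletal muscle markers to 207 to 208, against 227 to 237. Of 5 epithelial markers 1 rose and 1 fell. Of 5 chondrocyte markers 1 rose and 0 fell, and of 5 skeletal muscle markers 0 rose and 1 fell. Of 5 endothelial markers 2 rose and 0 fell, though their sum was 133 to 160, against 142 to 149 in control. The poly-A spike-in mean was 8.53 to 8.57 with Tead2-EnR, against 8.13 to 8.26 in control. The transferrin receptor 3′ minus 5′ difference was 1.10 to 1.13, against 0.94 to 1.02, and that of actin 0.14 to 0.17, against 0.08 to 0.09. The fibroblast markers summed to 88093 to 88229 with Tead2-EnR, against 72971 to 74269 in control. Their part in the ADAMTS differences was not tested.

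At complete confluency, the activator fusion Tead2-VP16 could be compared with control at a shared density label, which no other comparison of it allows. Adamts1 fell 1.98-fold (-0.98 ± 0.0666, SE, adjusted p = 6.52e-05). Adamts5 rose on 3 of its 4 probe sets, by 0.27 (adjusted p = 0.0357), 0.42 (0.00765) and 0.44 (0.0262), the last of these on its dim probe set. The fourth was at 0.42 and did not pass (adjusted p = 0.117). These rises were small: the call of the brightest probe set was lost when any 1 of the 4 arrays was left out, with adjusted p of 0.146 and 0.118 when 1 or the other Tead2-VP16 array was dropped, and of 0.0696 and 0.207 when the first or second confluent control array was.

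Adamts4 and Adamts7 just missed the threshold at complete confluency. Adamts4 was at -0.29 (adjusted p = 0.0545) and Adamts7 at -0.40 (adjusted p = 0.055), and both passed when tested over 1 probe set per gene (0.0277 and 0.0337). Adamts12 was at 0.14 and Adamts10 at 0.18, neither past the test. In all, 3 probe sets rose, where 2.75% of all did, and 1 fell, where 2.48% did. Without 1 array of the comparison, 1 to 3 of the 16 passed. The transferrin receptor 3′ minus 5′ difference was 1.46 to 1.54 with Tead2-VP16, against 1.17 to 1.44 in confluent control. Epithelial markers summed to 969 to 990 with Tead2-VP16, against 1540 to 1590 in control, macrophage markers to 529 to 536, against 695 to 722, and chondrocyte markers to 1010 to 1131, against 1379 to 1611. Of 5 epithelial markers 1 rose and 2 fell. Of 6 macrophage markers 0 rose and 1 fell, and of 5 chondrocyte markers 0 rose and 1 fell. The part of this control and these markers in the ADAMTS differences was not tested.

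**Figure D2:**
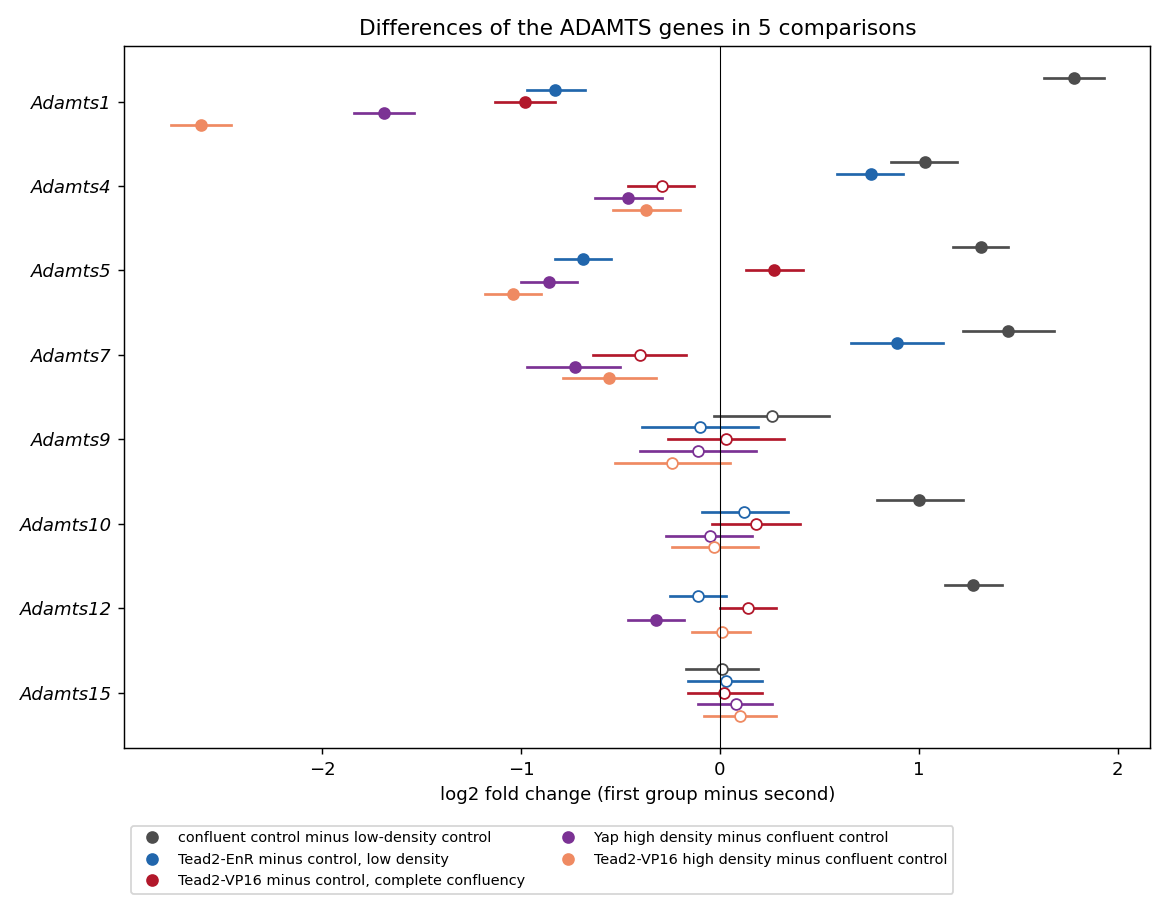
Log2 fold change (horizontal axis) of the brightest probe set of each of the 8 ADAMTS genes in 5 comparisons; lines are 95% intervals from the limma fit, filled points passed an adjusted p of 0.05 and open points did not. With Tead2-EnR, Adamts1 (-0.83) and Adamts5 (-0.69) lay on the other side of 0 from Adamts4 (0.76) and Adamts7 (0.89).

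The 4 Adamts5 probe sets allow a check within the gene. The 3 bright ones each had the order confluent Tead2-VP16, confluent control and Yap at the top and Tead2-EnR at the bottom. They differed in the middle, where the third put high-density Tead2-VP16 (8.72) below low-density control (8.84), a gap that did not pass the test, while the others had it above. In confluent control over low-density control they rose by 1.31, 1.5 and 0.86. The dim probe set, with group means from 3.18 to 4.0, was at 0.14 in that step and did not pass.

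**Figure D3:**
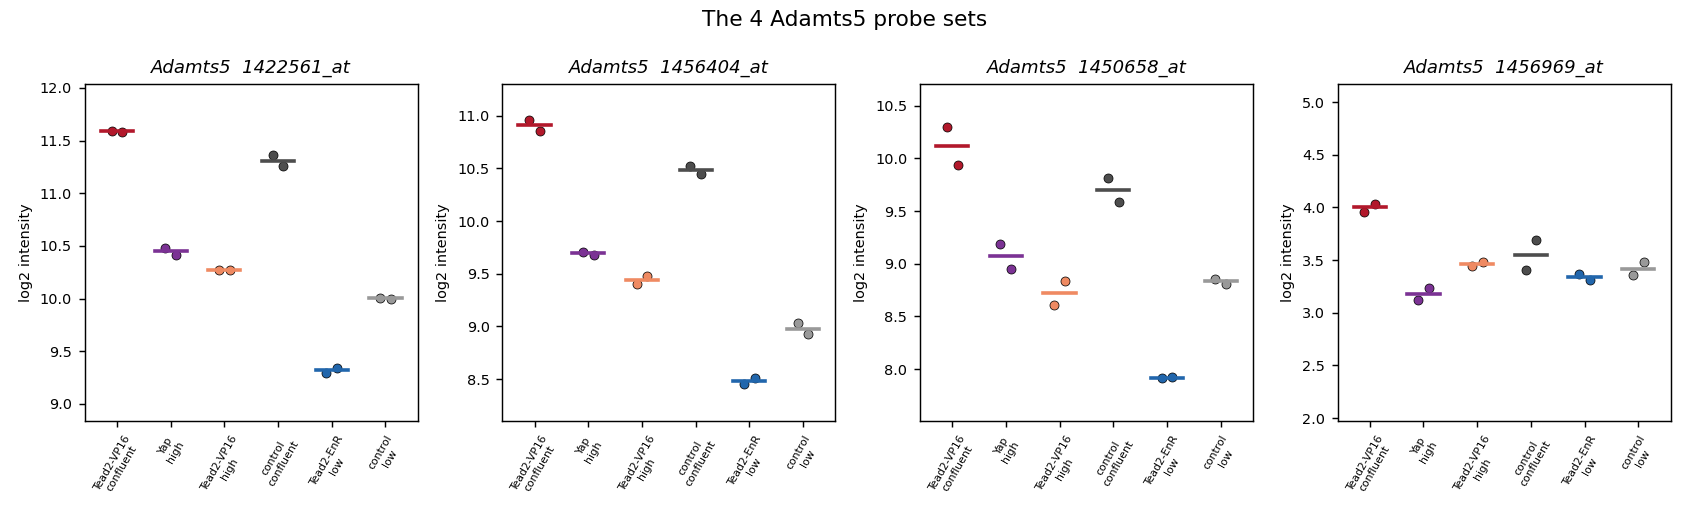
Log2 intensity (vertical axes) of the 4 Adamts5 probe sets in the 6 groups; points are arrays and bars are group means. The 3 bright probe sets share the highest group, confluent Tead2-VP16 (means 11.59, 10.91 and 10.12), and the lowest, Tead2-EnR (9.32, 8.48 and 7.92).

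For Yap cells, sampled at high density, confluent control was the control nearest in density. Adamts1 fell 3.23-fold (-1.69 ± 0.0666, SE, adjusted p = 6.12e-07) and Adamts5 fell 1.82-fold (-0.86 ± 0.0628, adjusted p = 1.93e-05). Adamts7 (-0.73), Adamts4 (-0.46) and Adamts12 (-0.32) fell by less, and Adamts10 was at -0.05, with a 95% interval from -0.27 to 0.16. Of the 16 probe sets 0 rose, where 8.09% of all did, and 9 fell, where 9.13% did. The 9 were those of Adamts1, Adamts7 and Adamts12, 1 each, with both of Adamts4 and all 4 of Adamts5. The dim Adamts12 probe set was at 0.06 and did not pass. The median over the 16 was -0.35, beside 0.00758 over all probe sets. The fibroblast markers summed to 102632 to 104541 in Yap cells, against 123755 to 126425 in confluent control. The actin 3′ minus 5′ difference was 0.12 to 0.13 in Yap cells, against 0.22 to 0.25 in confluent control. Skeletal muscle markers summed to 323 to 334 in Yap cells, against 183 to 193 in control, epithelial markers to 1861 to 1896, against 1540 to 1590, and macrophage markers to 510 to 543, against 695 to 722. Of 5 skeletal muscle markers 1, Acta1, rose (mean 7.49, against 5.54) and 0 fell. Of 5 epithelial markers 1 rose and 1 fell, and of 6 macrophage markers 1 rose and 1 fell. The part of these controls and markers was not tested.

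High-density Tead2-VP16 cells were set against the same confluent control arrays, so the 2 comparisons share their controls. Adamts1 fell 6.09-fold (-2.61 ± 0.0666, SE, adjusted p = 5.58e-08), the largest difference of any member in the 9 main comparisons. Among the remaining pairs of groups, Adamts1 in confluent control over Tead2-EnR differed as much (2.61). Adamts5 fell by 1.04, Adamts7 by 0.56 and Adamts4 by 0.37. Adamts12 (0.01, 95% interval from -0.14 to 0.15) and Adamts10 (-0.03, from -0.24 to 0.19) did not pass the test. Of the 16 probe sets 0 rose, where 8.92% of all did, and 7 fell, where 9.8% did. These were the bright Adamts1, Adamts7 and Adamts4 probe sets, the dimmer one of Adamts4 and the 3 bright ones of Adamts5. The fibroblast markers summed to 102774 to 103233 in these cells, against 123755 to 126425 in confluent control. Skeletal muscle markers summed to 335 to 355, against 183 to 193 in control, epithelial markers to 1416 to 1422, against 1540 to 1590, and macrophage markers to 501 to 521, against 695 to 722. Of 5 skeletal muscle markers 1, Acta1, rose (mean 7.56, against 5.54) and 0 fell. Of 5 epithelial markers 1 rose and 1 fell, and of 6 macrophage markers 0 rose and 1 fell. The poly-A spike-in mean was 8.27 to 8.36 in these cells, against 8.50 to 8.67 in confluent control. The part of this control and these markers was not tested.

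High-density Yap and Tead2-VP16 cells were also set against low-density control cells, from which they differ in both vector and density. In Yap cells 7 probe sets rose, where 17.3% of all did, and 0 fell, where 15.6% did, with Adamts12 at 0.95, Adamts10 at 0.95, Adamts7 at 0.72, Adamts4 at 0.57 and Adamts5 at 0.44. Adamts1 in Yap cells was at 0.09 and did not pass, with a 95% interval from -0.06 to 0.24. The dimmer Adamts10 probe set was at -0.26 in Yap cells (adjusted p = 0.0589). The third bright Adamts5 probe set was at 0.23 and the dim one at -0.24, neither past the test. The probe sets of Adamts10 and of Adamts5 thus disagree in sign there. In high-density Tead2-VP16 cells 7 rose, where 16.7% of all did, and 1 fell, where 15.9% did. The fall was that of Adamts1 (-0.83, adjusted p = 5.46e-06), and the rises included Adamts12 (1.28), Adamts10 (0.98), Adamts7 (0.90), Adamts4 (0.66) and Adamts5 (0.27). In these cells the dimmer Adamts10 probe set was at -0.16 and the third bright Adamts5 one at -0.11. The dim Adamts5 probe set was at 0.04, and none of these passed. Fibroblast markers summed to 102632 to 104541 in Yap and 102774 to 103233 in high-density Tead2-VP16 cells, against 72971 to 74269 in low-density control. Epithelial markers summed to 1861 to 1896 and 1416 to 1422 in the same cells, against 2703 to 2950. Macrophage (501 to 543), skeletal muscle (323 to 355) and chondrocyte (1233 to 1481) sums over both dense groups were higher than in low-density control (415 to 434, 227 to 237 and 1043 to 1054). In either dense group 1 of 5 skeletal muscle and 1 of 5 chondrocyte markers rose and 0 fell. Of 6 macrophage markers 1 rose and 1 fell in either group. Of 5 epithelial markers 1 rose and 1 fell in Yap cells, and 2 rose and 1 fell in Tead2-VP16 cells. The transferrin receptor 3′ minus 5′ difference was 1.26 to 1.35 in Yap and 1.23 in Tead2-VP16 cells, against 0.94 to 1.02, and the poly-A spike-in mean 8.40 to 8.53 and 8.27 to 8.36, against 8.13 to 8.26. That of actin was 0.12 to 0.13 in Yap and 0.18 to 0.29 in Tead2-VP16 cells, against 0.08 to 0.09 in low-density control. The part of these controls and markers was not tested.

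The direct comparison of Yap with Tead2-VP16 at high density matched the vectors by density label. Adamts1 was 1.89-fold higher in Yap cells (0.92 ± 0.0666, SE, adjusted p = 6.10e-04), and Adamts12 fell by 0.33 (adjusted p = 0.0351). These were the 2 probe sets called, 1 in each direction, where 1.12% of all rose and 0.611% fell. The dim Adamts12 probe set was at 0.13 and did not pass, so the probe sets of that gene disagree in sign. The Adamts12 call was lost without the first Tead2-VP16 array (adjusted p = 0.248), the first Yap array (0.189) or the second (0.180). Fitted on just these 4 arrays, Adamts1 had an adjusted p of 0.0502. Adamts5 was at 0.18 and did not pass, with a 95% interval from 0.04 to 0.32 before adjustment. Epithelial markers summed to 1861 to 1896 in Yap cells, against 1416 to 1422 in Tead2-VP16 cells, with 1 of 5 risen and 1 fallen. The poly-A spike-in mean was 8.40 to 8.53 in Yap, against 8.27 to 8.36 in Tead2-VP16 cells. The actin 3′ minus 5′ difference was 0.12 to 0.13, against 0.18 to 0.29, and that of the transferrin receptor 1.26 to 1.35, against 1.23. The part of these controls and markers was not tested.

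Within Tead2-VP16 cells, complete confluency was set against high density. Adamts1 rose 3.08-fold (1.62 ± 0.0666, SE, adjusted p = 1.41e-06) and Adamts5 rose 2.49-fold (1.31 ± 0.0628, adjusted p = 3.03e-06). All 4 Adamts5 probe sets rose, by 0.54 to 1.47, so 5 of the 16 passed, where 8.26% of all probe sets rose, and 0 fell, where 8% of all did. Adamts7 (0.15), Adamts4 (0.08), Adamts12 (0.13) and Adamts10 (0.20) did not pass. The transferrin receptor 3′ minus 5′ difference was 1.46 to 1.54 in confluent and 1.23 in both high-density Tead2-VP16 arrays, and the poly-A spike-in mean 8.51 to 8.83 in confluent and 8.27 to 8.36 in high-density cells. Fibroblast markers summed to 123151 to 123757 in confluent, against 102774 to 103233 in high-density cells, epithelial markers to 969 to 990, against 1416 to 1422, skeletal muscle markers to 181 to 194, against 335 to 355, and chondrocyte markers to 1010 to 1131, against 1233 to 1392. Of 5 epithelial markers 0 rose and 1 fell, and of 5 skeletal muscle markers 0 rose and 1 fell. Of 5 chondrocyte markers 1 rose and 1 fell. The part of these controls and markers was not tested.

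Other genes of the pathway were taken from lists by function, with 1 probe set per gene. Of 11 other ADAMTS proteases, 7 were measured and 3 were above the median probe set. Between confluent and low-density control, 1 of the 7 rose, where 24.9% of genes did, and 2 fell, where 21.4% did. The rise was that of Adamts6 (1.32, adjusted p = 4.81e-07), at 8.10 and 7.91 in confluent control, against 6.60 and 6.77 in low-density control. Adamts18 fell by 0.44 on a dim probe set. With Tead2-EnR, Adamts6 was at -0.16 over low-density control (adjusted p = 0.2), and with Tead2-VP16 at -0.15 over confluent control (adjusted p = 0.373). Its dimmer probe set was higher with Tead2-EnR, at 4.57 and 4.34, against 3.94 and 4.13 in low-density control, so its probe sets disagree in sign there.

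ADAMTS-like proteins share the non-catalytic part of the family and have no protease domain. Of 7 measured, 2 rose in confluent control over low-density control, a share near the 24.9% of all genes that did, and 0 fell, where 21.4% of genes did. Adamtsl4, which binds fibrillin, rose by 2.53 (adjusted p = 2.30e-09), at 10.55 and 10.50 in confluent control, against 8.01 and 7.97 in low-density control, and Adamtsl5 rose by 0.50. With Tead2-EnR, Adamtsl4 rose by 0.76 and Adamtsl5 fell by 0.31, where 18.4% of genes rose and 16% fell.

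Of 13 measured regulators of ADAMTS activity, 6 rose and 1 fell in confluent control over low-density control, where 24.9% of genes rose and 21.4% fell. Timp3, the chief inhibitor of Adamts4 and Adamts5, rose by 1.34 (adjusted p = 8.62e-08), at 13.13 and 13.20 in confluent control, against 11.79 and 11.87 in low-density control, and all 4 of its probe sets rose, by 1.34 to 1.54. Timp1, an inhibitor of many other metalloproteases, fell by 1.81. Lrp1, the receptor that takes up Adamts5 from outside the cell, rose by 0.60.

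At complete confluency Timp3 fell with Tead2-VP16 on all 4 probe sets, by 0.64 to 0.88, and it and Timp4 (-0.36) were the 2 of 13 that fell, where 3.14% of genes did. With Tead2-EnR, 5 of the 13 rose, where 18.4% of genes did, and 2 fell, where 16% did. Timp3 rose by 0.51 and Furin, which activates proenzymes, by 0.66, while Timp1 fell by 0.66 and Lrp1 by 0.40. In Yap cells over confluent control Timp1 rose by 1.64 and Lrp1 fell by 0.41, and these were the only 2 of 13 to pass, where 9.61% of genes rose and 12.4% fell. The dimmer Lrp1 probe set was higher in Yap cells, at 5.56 and 5.50, against 5.27 and 5.29 in confluent control. The probe sets of Lrp1 thus disagree in sign there.

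**Figure D4:**
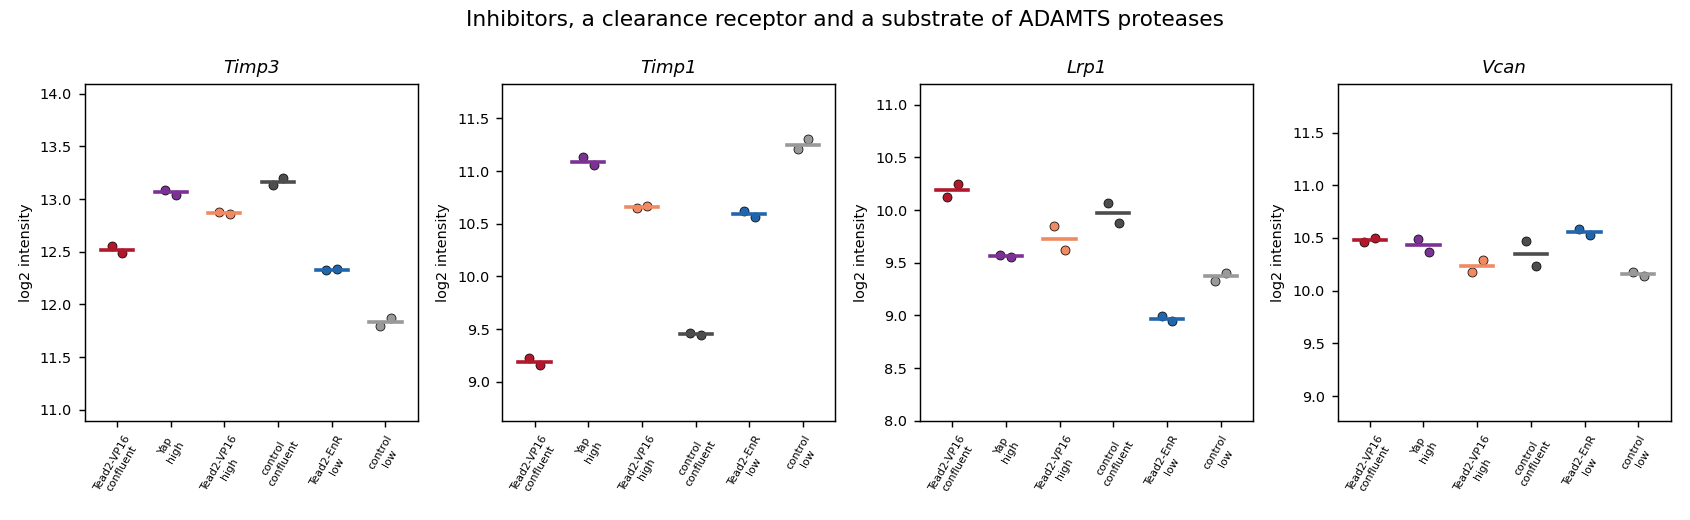
Log2 intensity (vertical axes) of Timp3 and Timp1 (inhibitors), Lrp1 (uptake receptor) and Vcan (versican, a substrate) in the 6 groups; points are arrays and bars are group means. Timp3 was highest in confluent control (13.13 and 13.20) and lowest in low-density control (11.79 and 11.87), while Timp1 was lowest in the confluent groups.

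Of 21 measured substrates, 10 rose and 3 fell in confluent control over low-density control, where 24.9% of genes rose and 21.4% fell. The 2 with the smallest adjusted p were Dcn, the proteoglycan decorin (5.80), and Nid2, the basement membrane protein nidogen 2 (3.54). Vcan, versican, did not pass on its brightest probe set, at 10.47 and 10.23 in confluent control, against 10.18 and 10.14 in low-density control, but rose by 0.79 on another. Acan, aggrecan, was flat, at 6.08 and 6.0 in confluent control, against 5.95 and 5.97 in low-density control. With Tead2-EnR, 10 of the 21 rose and 2 fell, where 18.4% and 16% of genes did. The smallest adjusted p were those of Dcn (3.58) and Thbs1, thrombospondin 1 (2.89), and Vcan rose by 0.40. With Tead2-VP16 at complete confluency 1 rose and 5 fell, where 3.35% and 3.14% of genes did, with the smallest adjusted p for Ltbp1, which stores latent growth factor (-1.05), and Dcn (-0.89). Over confluent control, 2 of the 21 rose and 8 fell in Yap cells, where 9.61% and 12.4% of genes did, with the smallest adjusted p for Nid2 (-1.92) and Dcn (-1.44). In high-density Tead2-VP16 cells 3 rose and 9 fell, where 11.4% and 11.9% of genes did, with the smallest adjusted p for Dcn (-2.16) and Nid2 (-1.78).

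The genes of the hyaluronan matrix make and bind the polymer on which the proteoglycan substrates are held. Of 8 measured, 2 rose and 1 fell in confluent control over low-density control, near or below the 24.9% and 21.4% of all genes. The smallest adjusted p were those of Tnfaip6, a hyaluronan-binding protein (1.94), and Cd44, the hyaluronan receptor (-0.94). With Tead2-VP16 at complete confluency 1 rose and 3 fell, where 3.35% and 3.14% of genes did, with the smallest adjusted p for Has2, a hyaluronan synthase (-1.28), and Ptx3, which cross-links hyaluronan (-1.20).

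Genes with the most similar profile were found by Pearson correlation of log2 levels over the 12 arrays, among 11026 named genes above the median level. The 12 arrays are 6 pairs, so high values are common and are given as a description. Adamts1 was most like Jun (r = 0.964), Nr4a1 (0.956) and Nkiras1 (0.95). Adamts5 was most like Sorbs3 (0.981), Cemip (0.973) and Sptbn1 (0.972). Adamts7 was most like Adamts4 (0.986), and Adamts4 was most like Spg7 (0.993). Adamts12 was closest to Slc38a7 (0.985) and Adamts10 to Sike1 (0.984), while the flat Adamts9 and Adamts15 reached only 0.865 and 0.85.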

How the data were processed

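The authors deposited 1 table of intensities, with a value for each of 45101 probe sets on 12 arrays. Per the submitters' processing notes the values come from RMA, which normalizes arrays to a common distribution and gives log2 values. The deposited intensity values run from 3.77 to 25980 and are linear, so log2 was taken. RMA forces equal distributions, which would hide a shift shared by all genes.

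The 64 control probe sets were left out of the fit, and the platform annotation gave 34945 probe sets 1 gene symbol, 932 several and 9160 none. All 45037 remaining probe sets were fitted with limma 3.58.1 in R 4.3.3, with 1 mean per group, which left 6 residual degrees of freedom beside 3.69 from the prior. Two-sided p-values of each of 9 main comparisons had a Benjamini-Hochberg adjustment over all probe sets. The remaining pairs of groups, used for neighbouring steps in the order of means, were fitted and adjusted in the same way. No filter on level was applied. The fit was tested on simulated data. Same-numbered arrays showed little shared deviation, so the numbers were not used as pairs.

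The 8 genes and the gene and marker lists were chosen with earlier results of these data known. From each list and comparison up to 2 called genes with the smallest adjusted p were named, beside Timp3, Lrp1, Vcan and Acan. The Adamts6 values outside its call and the values of Lyz2, Cd68, Epcam, Krt14 and Acta1 were added after they were seen. So were those of the dimmer Adamts6 and Lrp1 probe sets. Alternatives were quantile and median centring, a filter on dim probe sets, 1 probe set per gene, a mean-variance trend with robust variances, the arrays of a comparison alone, a replicate block, each array left out and a plain 2-fold threshold.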

Additional observations from a re-analysis of the deposited data

How the results depend on the processing

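With 2 arrays a group, small changes rest on little replication, and no detection calls show which dim probe sets stand above background. The 72 gene values (36 of them called) gave 774 values under the alternatives, of which 737 kept direction and call, 13 lost the call, 7 gained it and 17 changed sign, 0 of them called values. The sign turned when arrays were centred on their medians for Adamts15 between the control densities (-0.03145) and for Adamts10 in high-density Tead2-VP16 over confluent control (0.00309). With 1 array left out, signs turned within these ranges: for Adamts9, -0.2162 to 0.01831 (Tead2-EnR), -0.1041 to 0.1599 (confluent Tead2-VP16), -0.2412 to 0.02281 (Yap over confluent control), -0.01626 to 0.2705 (Yap over Tead2-VP16) and -0.1214 to 0.1654 (high-density Tead2-VP16 over low-density control); for Adamts15, -0.03036 to 0.04751 (control densities), -0.09765 to 0.1493 (Tead2-EnR) and -0.05282 to 0.005862 (Yap over Tead2-VP16); for Adamts10, -0.02176 to 0.2676 (Tead2-EnR); and for Adamts12, -0.05354 to 0.06538 (high-density Tead2-VP16 over confluent control).

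Tested over 1 probe set per gene, with fewer probe sets to count, calls went to 6 in place of 10 between the control densities, 4 in place of 8 with Tead2-EnR, 5 in place of 9 for Yap and 4 in place of 7 for high-density Tead2-VP16 over confluent control, and 2 in place of 5 in the Tead2-VP16 density step. At a plain 2-fold change they were 0 with Tead2-EnR, 0 for confluent Tead2-VP16, 1 for Yap and 3 for high-density Tead2-VP16 over confluent control, 0 for Yap over Tead2-VP16, and 0 for Yap and 1 for high-density Tead2-VP16 over low-density control. Confluent Tead2-VP16 over control gave 1 call in place of 4 from its own 4 arrays and 1 to 3 with 1 array left out. Yap over Tead2-VP16 gave 4 in place of 2 with a variance trend, 0 from its own arrays (which have fewer degrees of freedom) and 1 to 2 with 1 array left out. Adamts5 in confluent Tead2-VP16 cells also missed the threshold after repeated quantile normalization (0.2365, adjusted p = 0.0601). The cause of the other changes was not tested.

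Deviations of same-numbered arrays correlated above 0.1 in 1 of 15 pairs of groups (correlations from -0.0757 to 0.101). Low correlations cannot show whether same-numbered arrays shared a culture or a run. With the replicate number as a block, calls for Yap over Tead2-VP16 were 1 in place of 2, the Adamts5 rise in confluent Tead2-VP16 cells had an adjusted p of 0.0502, the Adamts12 fall in Yap cells over Tead2-VP16 0.0537, and the Adamts7 difference in confluent Tead2-VP16 cells 0.0375. The counts of the other 8 comparisons were the same.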
